A study of Homo sapiens with 101 samples.

Results

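The unfolded protein response and the chaperones of the endoplasmic reticulum (ER) were followed as a module of 31 listed genes, of which 30 were measured among 19775 genes in all. Members were found by gene symbol on the arrays, and each was represented by the probe set with the highest mean over all arrays. The probe sets of HSP90B1, CALR, PDIA6, SPCS3 and DERL3 are of a type open to cross-hybridisation. SYVN1, a ubiquitin ligase of ER-associated degradation, was left out because its probe set also names another gene. Levels are log2 values, so a difference of 1 is a doubling.

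SW480 and SW620 are human colorectal adenocarcinoma lines of 1 origin: SW620 came from a metastasis in a lymph node and SW480 from the tumour itself. Each was studied with short hairpin RNA knockdown of 1 of 6 genes (NGFR, HRAS, CDK5, MAPK3, MAP2K1 and MAP2K2), with a non-target hairpin or an empty vector (together the vector controls), or non-transduced. Every knockdown and vector control group had 6 arrays per line, except CDK5 knockdown in SW620 with 5, and non-transduced cells had 3 per line. The targets are a cyclin-dependent kinase (CDK5), the RAS protein HRAS, the kinases MEK1 (MAP2K1), MEK2 (MAP2K2) and ERK1 (MAPK3), and the neurotrophin receptor NGFR. HRAS hairpins carry differing codes: B3 marks replicate 1, A1 marks replicates 3 to 6, and replicate 2 has no code. The other knockdowns used 1 code each. It is not stated whether the arrays tagged A or B (replicates 3 to 6) came from separate cultures. The spread between them may thus be technical. All arrays share 1 fit, so p-values rest on that spread together with the departures of replicates 1 and 2. In replicates 3 to 6 alone they rest on that spread only.

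In the unfolded protein response, misfolded proteins in the ER lumen draw the chaperone HSPA5 (BiP) away from 3 membrane sensors. ERN1 (IRE1) splices the XBP1 message, ATF6 is cut to release a transcription factor, and EIF2AK3 (PERK) phosphorylates the initiation factor eIF2 alpha, which slows translation and favours translation of ATF4. Spliced XBP1 and cut ATF6 raise chaperones and degradation genes, while ATF4 raises amino acid synthesis and transport genes and the stress factors DDIT3 (CHOP), ATF3 and TRIB3. The ATF4 arm can also be switched on by amino acid shortage through another kinase, without the ER sensors.

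Promoter windows are shown to set motifs known from the ER sensors' branches beside the element known from the ATF4 arm. RefSeq promoters (GRCh38.p14, 250 bases before to 50 after each start) were matched by symbol for 28 of the 31 listed members, SYVN1 included, and for 18 of 22 ATF4 arm genes, and both strands were searched. PDIA3, DERL1, DERL3, PSPH, SHMT2, SLC7A11 and NUPR1 had no match. The ER stress response element, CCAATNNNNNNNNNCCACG, was held by 6 of 28 member promoters (21.4%), those of XBP1, HSPA5, HSP90B1, CRELD2, CALR and CANX, against 22 of 27305 promoters in all (0.0806%). Its second form, ATTGG and CCACG with 1 base of any kind between, was held by 3 of 28 (10.7%), those of HYOU1, SDF2L1 and HERPUD1, against 0.0549% of all promoters. The C/EBP-ATF element, TGATGNAA, was held by 4 of 18 ATF4 arm promoters (22.2%), those of ATF3, CHAC1, ASNS and SLC3A2, by 1 of 28 member promoters (HERPUD1) and by 3.67% of all promoters. The UPR element, TGACGTGG, was held by 1 member promoter, that of HYOU1, where it overlaps the second form, and by 0.795% of all promoters. In the windows below, capitals mark the fixed letters of the motif, and in CRELD2 they lie on the opposite strand. HSPA5 is on the minus strand at chr9:125241344-125241543, CRELD2 on the plus strand at chr22:49918514-49918633, XBP1 on the minus strand at chr22:28800570-28800689, HERPUD1 on the plus strand at chr16:56931952-56932071 and ASNS on the minus strand at chr7:97872409-97872528.
HSPA5: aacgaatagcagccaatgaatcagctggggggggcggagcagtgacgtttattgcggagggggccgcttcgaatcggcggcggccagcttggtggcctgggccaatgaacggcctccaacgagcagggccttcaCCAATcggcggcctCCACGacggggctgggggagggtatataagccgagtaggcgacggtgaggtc
CRELD2: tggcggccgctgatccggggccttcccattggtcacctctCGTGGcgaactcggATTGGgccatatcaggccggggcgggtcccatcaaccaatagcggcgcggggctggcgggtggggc
XBP1: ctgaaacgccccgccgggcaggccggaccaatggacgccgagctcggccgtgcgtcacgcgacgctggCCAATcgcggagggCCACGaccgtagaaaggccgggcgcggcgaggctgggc
HERPUD1: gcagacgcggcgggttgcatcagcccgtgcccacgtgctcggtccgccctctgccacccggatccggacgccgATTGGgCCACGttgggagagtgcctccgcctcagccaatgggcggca
ASNS: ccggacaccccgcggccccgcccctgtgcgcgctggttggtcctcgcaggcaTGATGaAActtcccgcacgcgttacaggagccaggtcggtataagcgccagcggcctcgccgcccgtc
A match is a description of the letters and not evidence of a bound site.

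The targeted gene was lower in each knockdown averaged over the lines, at 25.4% of vector controls for NGFR, 27.3% for MAP2K2, 32.3% for CDK5, 32.7% for MAP2K1, 40.6% for HRAS and 73.0% for MAPK3. In SW620 alone NGFR was at 69.8% of vector controls (limma adjusted p = 0.136) and HRAS changed by -0.74 (adjusted p = 0.0372). The epithelial markers EPCAM, KRT8, KRT18 and KRT19 had medians above the median of at least 98.8% of genes in both lines, and the other 6 markers of the list varied. Among those 6, KRT20 was lowest, above 6.43% of genes in SW620 and 6.59% in SW480, while VIL1 (villin) was above 91.3% in SW620 and 59.3% in SW480 and CDH1 (E-cadherin) above 76.6% in SW620 and 70.4% in SW480. Among the arrays, 3 SW620 arrays had a GAPDH 3′ minus 5′ difference above 2, a sign of degraded RNA (MAP2K1 and MAPK3 knockdown in replicate 2, NGFR knockdown in replicate 1). Under that limit, HRAS knockdown SW480 replicates 3 and 4 had 1.39 and 1.47, against 0.41 and 0.32 on replicates 5 and 6. Another 3 arrays, labelled SW480 (MAP2K1, MAP2K2 and MAPK3 knockdown in replicate 1), carried transcripts of genes that mark SW620. Counts of member and knockdown pairs without either set of 3 arrays are given below, and other counts where they moved by over 1.5 times.

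In vector control cells XBP1, ERN1, ATF6 and several chaperones stood higher in SW620 than in SW480. Of the 30 members, 12 were higher and 8 lower in SW620, beside 48.6% of all genes called in that comparison, and the median difference was 0.10 beside -0.01 over all genes. XBP1, the transcription factor made active by splicing, lay between 9.83 and 10.49 (median 9.94) in SW620 and between 7.53 and 8.33 (median 8.11) in SW480, so the lines did not overlap (difference 1.97 ± 0.14 SE, limma adjusted p = 3.18e-22). ERN1, the kinase and nuclease that splices it, lay between 7.95 and 8.80 (median 8.19) in SW620 and between 5.57 and 7.46 (median 7.15) in SW480 (difference 1.31 ± 0.15, adjusted p = 4.64e-12), again without overlap. On non-transduced arrays (replicates 1, 2 and 7) ERN1 was 5.90, 6.89 and 7.61 in SW620 and 6.35, 6.94 and 7.63 in SW480. ATF6 there was 6.66, 8.06 and 8.13 in SW620 and 7.42, 7.65 and 8.27 in SW480. XBP1 there was 8.55, 9.12 and 9.77 in SW620 and 7.56, 7.87 and 8.92 in SW480. Without vector, XBP1 thus stayed higher in SW620 at each replicate number, while ERN1 and ATF6 did not. This was not tested. In vector controls HSP90B1, the ER form of HSP90, was higher by 1.24 and HERPUD1, which gathers the degradation complex, by 1.16. PDIA6, a disulfide isomerase, went the other way, between 9.70 and 10.11 (median 9.76) in SW620 and between 10.93 and 11.35 (median 10.98) in SW480 (difference -1.19 ± 0.09, adjusted p = 6.31e-20). DNAJB11, a co-chaperone of HSPA5, and CRELD2, a disulfide isomerase-like protein, were lower in SW620 by smaller amounts (differences -0.42 and -0.39). In replicates 1 and 2 alone these differences turned to 0.021 for DNAJB11 and 0.055 for CRELD2. HSPA5 itself lay between 11.31 and 11.98 (median 11.70) in SW620 and between 11.25 and 11.70 (median 11.64) in SW480, and its difference was not among those called.

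**Figure D1:**
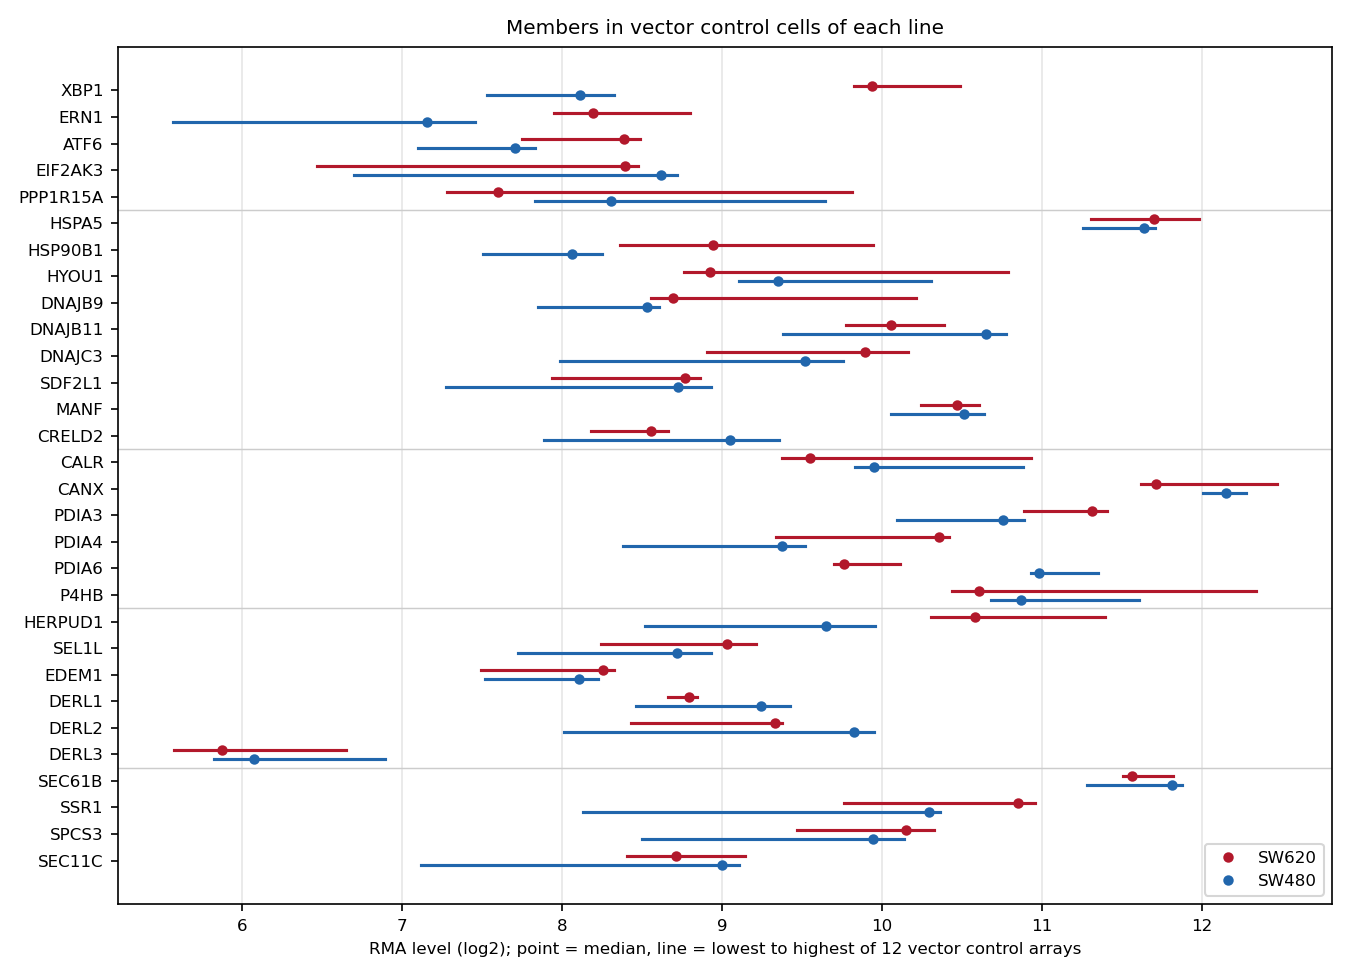
Level of each of the 30 members (log2) in 12 vector control arrays of SW620 (red, upper) and 12 of SW480 (blue, lower). Points are medians and lines run from the lowest to the highest array; XBP1 and PDIA6 show separate ranges in opposite directions.

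Knockdown against vector controls moved members in both directions. Averaged over both lines, members called higher and lower were 6 and 7 with CDK5 knockdown (all genes 8.71% and 10.7%, 19.4% in all), 6 and 9 with HRAS knockdown (all genes 15.4% and 20.6%, 36% in all) and 2 and 6 with MAP2K1 knockdown (all genes 7.4% and 7.82%, 15.2% in all). They were 3 and 6 with MAP2K2 knockdown (all genes 7.99% and 11.2%, 19.2% in all), 4 and 5 with MAPK3 knockdown (all genes 11.6% and 14%, 25.6% in all) and 5 and 6 with NGFR knockdown (all genes 14.1% and 14.6%, 28.7% in all). The members' median change lay between -0.02 and 0.11, and the median over all genes between -0.01 and 0.01. All 6 knockdowns were set against the same vector controls, so their values are given side by side and are not independent of each other. An array level is a mean over the culture, so less RNA per cell and fewer cells with the RNA cannot be told apart.

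Within SW620, members higher and lower numbered 5 and 9 with CDK5 knockdown (all genes 10.6% and 13.4%, 24% in all), 4 and 9 with HRAS knockdown (all genes 14.2% and 16.8%, 31% in all) and 4 and 8 with MAP2K1 knockdown (all genes 9.77% and 9.28%, 19.1% in all). They were 4 and 9 with MAP2K2 knockdown (all genes 10.5% and 12.7%, 23.2% in all), 5 and 7 with MAPK3 knockdown (all genes 13.9% and 15.9%, 29.8% in all) and 3 and 12 with NGFR knockdown (all genes 12.9% and 13.4%, 26.3% in all). Over the 6 knockdowns this made 79 of 180 member and knockdown pairs, 25 higher and 54 lower. ERN1, XBP1, ATF6, HERPUD1 and DNAJB9 were lower in all 6, CRELD2 was higher in all 6, and HSPA5, HYOU1, HSP90B1, PDIA3, PDIA4, P4HB, DERL3 and SEC11C (8 members) were called in none. Within SW480, the same counts were 1 and 1 with CDK5 knockdown (all genes 4.15% and 3.9%, 8.06% in all), 3 and 4 with HRAS knockdown (all genes 9.97% and 16.2%, 26.2% in all) and 0 and 0 with MAP2K1 knockdown (all genes 3.2% and 3.34%, 6.54% in all). They were 0 and 0 with MAP2K2 knockdown (all genes 2.07% and 3.09%, 5.17% in all), 2 and 1 with MAPK3 knockdown (all genes 4.21% and 6.46%, 10.7% in all) and 12 and 0 with NGFR knockdown (all genes 13.1% and 10.9%, 24% in all). That came to 24 of 180 pairs, 18 higher and 6 lower. Both totals depended on which arrays entered and on the term for rounds. The share of all genes called is given only for the main fit and against non-transduced cells. The counts that follow therefore show how far the calls depend on the setting, and not how members compare with all genes. The SW620 count was 32 (6 higher, 26 lower) without a term for rounds and 45 (8 higher, 37 lower) with arrays averaged in pairs. It was 6 (0 higher, 6 lower) in replicates 1 and 2 alone. In replicates 3 to 6 alone it was 144 (77 higher, 67 lower), so falls no longer outnumbered rises there. The SW480 count was 4 without a term for rounds, 4 with arrays averaged in pairs, 9 to 12 without any 1 of replicates 3 to 6, 0 in replicates 1 and 2 alone and 114 in replicates 3 to 6 alone. Without the 6 arrays that stood apart, an exclusion chosen after seeing the data, the counts were 104 in SW620 (46 higher, 58 lower) and 54 in SW480 (47 higher, 7 lower). Without the arrays of degraded RNA alone they were 92 in SW620 (37 higher, 55 lower) and 38 in SW480 (31 higher, 7 lower). Without the SW480 arrays with SW620 genes alone they were 85 in SW620 and 31 in SW480.

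**Figure D2:**
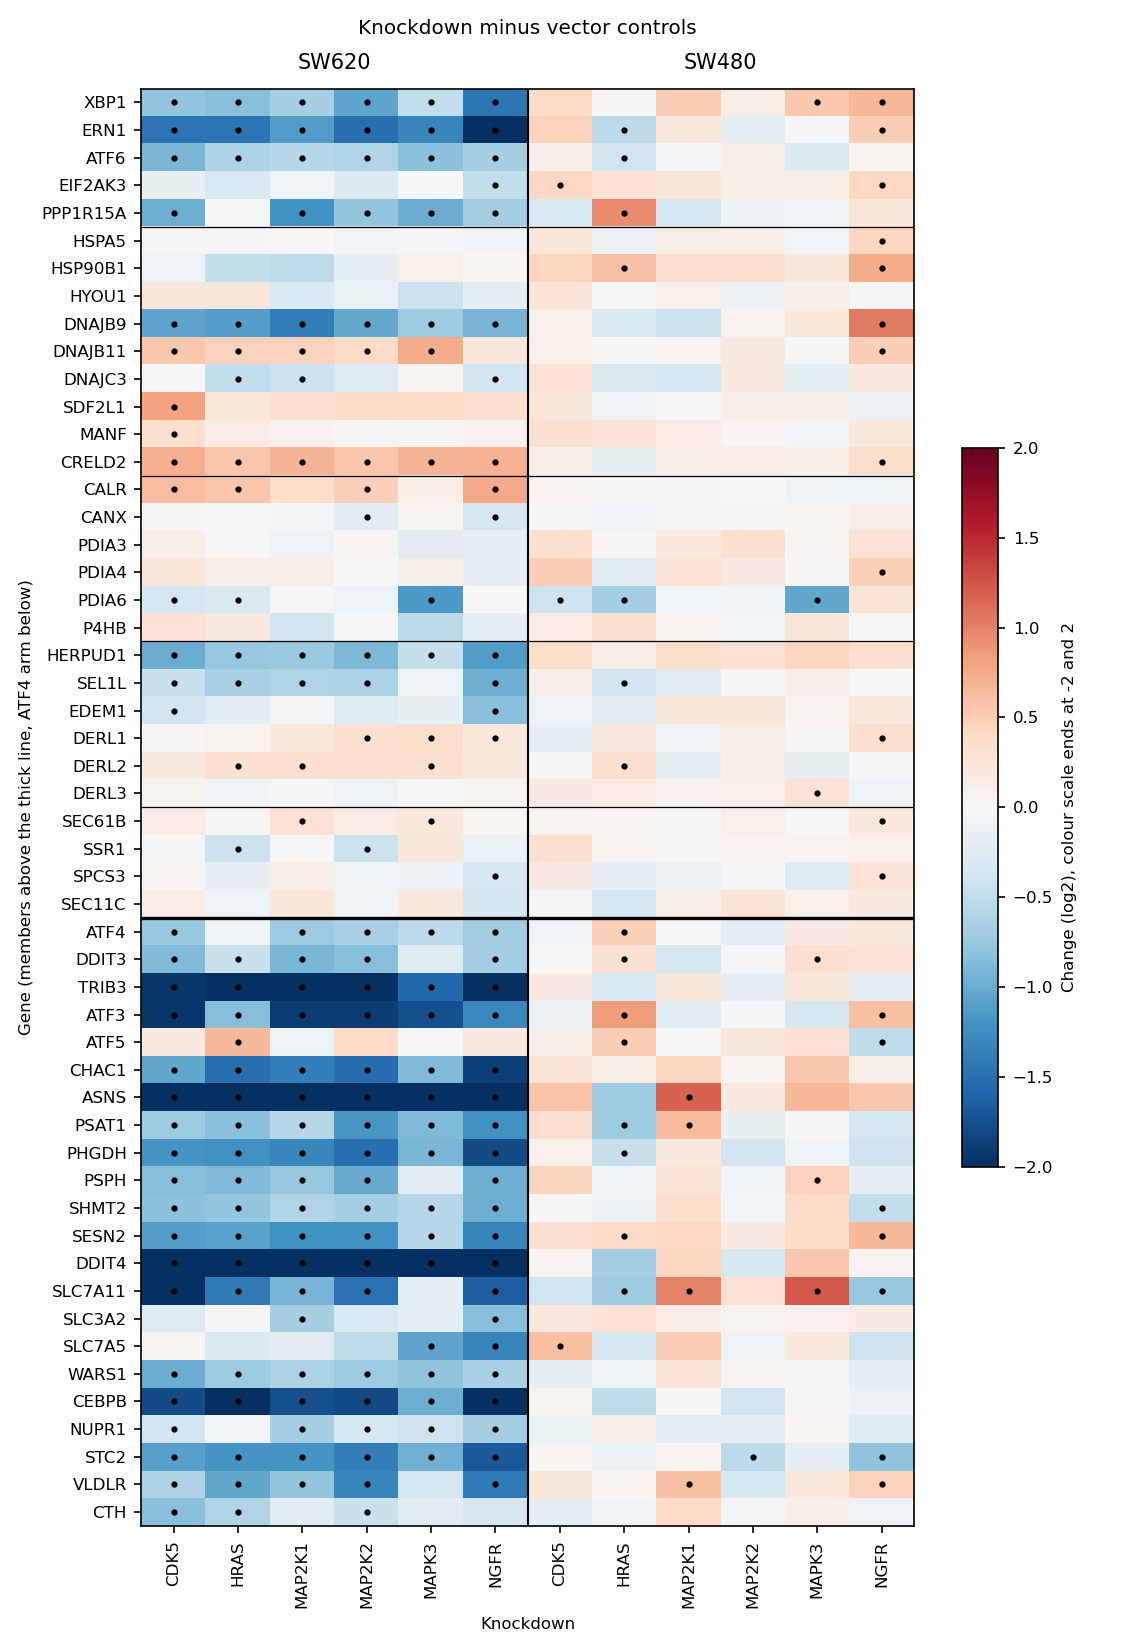
Change in log2 level against vector controls for each knockdown (columns) in SW620 (left) and SW480 (right), members above the thick line and ATF4 arm genes below it. Black points mark an adjusted p under 0.05; blue rows for ERN1, XBP1, ATF6, HERPUD1 and DNAJB9 run through SW620, and most ATF4 arm genes are lower there too.

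The choice of control bears on every SW620 value. The SW620 vector controls themselves stood above non-transduced SW620 cells for 6 members, with none lower (5.88% of all genes called): ERN1 by 1.57 ± 0.30, DNAJB9 by 1.51 ± 0.39, XBP1 by 1.04 ± 0.27, PPP1R15A by 1.02 ± 0.30, ATF6 by 0.86 ± 0.24 and HERPUD1 by 0.77 ± 0.25, with limma adjusted p between 0.000354 and 0.0474. Of the ATF4 arm, 11 of 22 genes were higher as well. Non-transduced SW620 cells had ERN1 at 5.90, 6.89 and 7.61 (replicates 1, 2 and 7), all below the lowest vector control. Set against non-transduced cells in place of vector controls, 3 of 180 member pairs were called in SW620 (2 higher, 1 lower, beside 0.774% to 9.88% of all genes by knockdown) and 8 of 132 ATF4 arm pairs, and ERN1, XBP1, ATF6 and DNAJB9 turned to positive, uncalled changes in most knockdowns. That comparison rests on replicates 1 and 2, since replicate 7 exists only in non-transduced cells, and without replicate 1 the ATF4 arm count in vector controls against non-transduced cells was 0 higher and 2 lower. In SW480, 0 members and 0% of all genes were called for vector controls against non-transduced cells by limma, with 2 members at an unadjusted p under 0.05. The non-target hairpin and the empty vector differed in 0 members by limma (0.086% of all genes called averaged over lines, with 4 members at an unadjusted p under 0.05), and in 7 members with replicates 3 to 6 alone.

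Among the sensors, ERN1 changed most in SW620. It lay between 5.19 and 6.29 (median 5.99) on the 6 NGFR knockdown arrays, against 7.95 to 8.80 (median 8.19) on the 12 vector control arrays. All 6 knockdown arrays were below every control array, and in each of the other 5 knockdowns every array was below the control arrays of its own round. The changes were -1.48 with CDK5, -1.46 with HRAS, -1.12 with MAP2K1, -1.51 with MAP2K2, -1.30 with MAPK3 and -2.34 with NGFR knockdown (SE 0.19 to 0.20, limma adjusted p between 1.7e-16 and 4.12e-06). Within rounds of sample names they ran from -0.42 (MAP2K1, replicate 1) to -3.19 (NGFR, replicate 1), all below 0. The other 2 ERN1 probe sets moved less, between -0.42 and 0.11 averaged over lines, where the brightest gave -0.45 to -0.99. In SW480 ERN1 was called lower in 1 knockdown (HRAS, -0.52) and higher in 1 (NGFR, 0.50).

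XBP1 lay between 7.23 and 8.95 (median 8.83) with NGFR knockdown in SW620, against 9.83 to 10.49 (median 9.94) in vector controls, without overlap. Its changes in SW620 were -0.78, -0.85, -0.66, -1.05, -0.50 and -1.45 for CDK5, HRAS, MAP2K1, MAP2K2, MAPK3 and NGFR in that order (adjusted p between 2.28e-10 and 0.0211). These probe sets do not tell spliced from unspliced XBP1. With the mean of its 2 probe sets the NGFR change in SW620 was -0.69 (limma adjusted p = 4.02e-08), so they did not move alike. ATF6, the sensor cut in the Golgi, had 6.98, 7.48, 7.51, 7.52 and 7.54 on the 5 CDK5 knockdown arrays of SW620, against 7.75 to 8.48 (median 8.39) in vector controls, without overlap. Its SW620 changes ran from -0.58 to -0.91, but within replicate 1 and within replicate 2 the MAP2K1 change was 0.15 and 0.17, and 1 of the 4 ATF6 probe sets stayed between -0.09 and 0.05. In SW480 the ATF6 changes ran from -0.40 to 0.11, with 1 knockdown called lower.

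EIF2AK3, the sensor that leads to ATF4, was lower in SW620 only with NGFR knockdown among the 6 (-0.49 ± 0.14, adjusted p = 0.0058), with changes from -0.31 to 0.00 in the other 5. PPP1R15A (GADD34), the phosphatase subunit that restores translation, was lower in SW620 in 5 knockdowns, most with MAP2K1. It had 6.55 to 7.84 (median 6.82) on those arrays, against 7.28 to 9.81 (median 7.60) in vector controls, a change of -1.21 ± 0.19 (adjusted p = 1.21e-06). The ranges overlap over all rounds, but each of the 6 arrays was below the control arrays of its own round. With HRAS knockdown the PPP1R15A change was 0.01 in SW620 and 0.95 ± 0.19 in SW480 (adjusted p = 5.11e-05), where the knockdown arrays ran from 8.50 to 11.39 (median 8.86), against 7.83 to 9.64 (median 8.30) in vector controls.

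**Figure D3:**
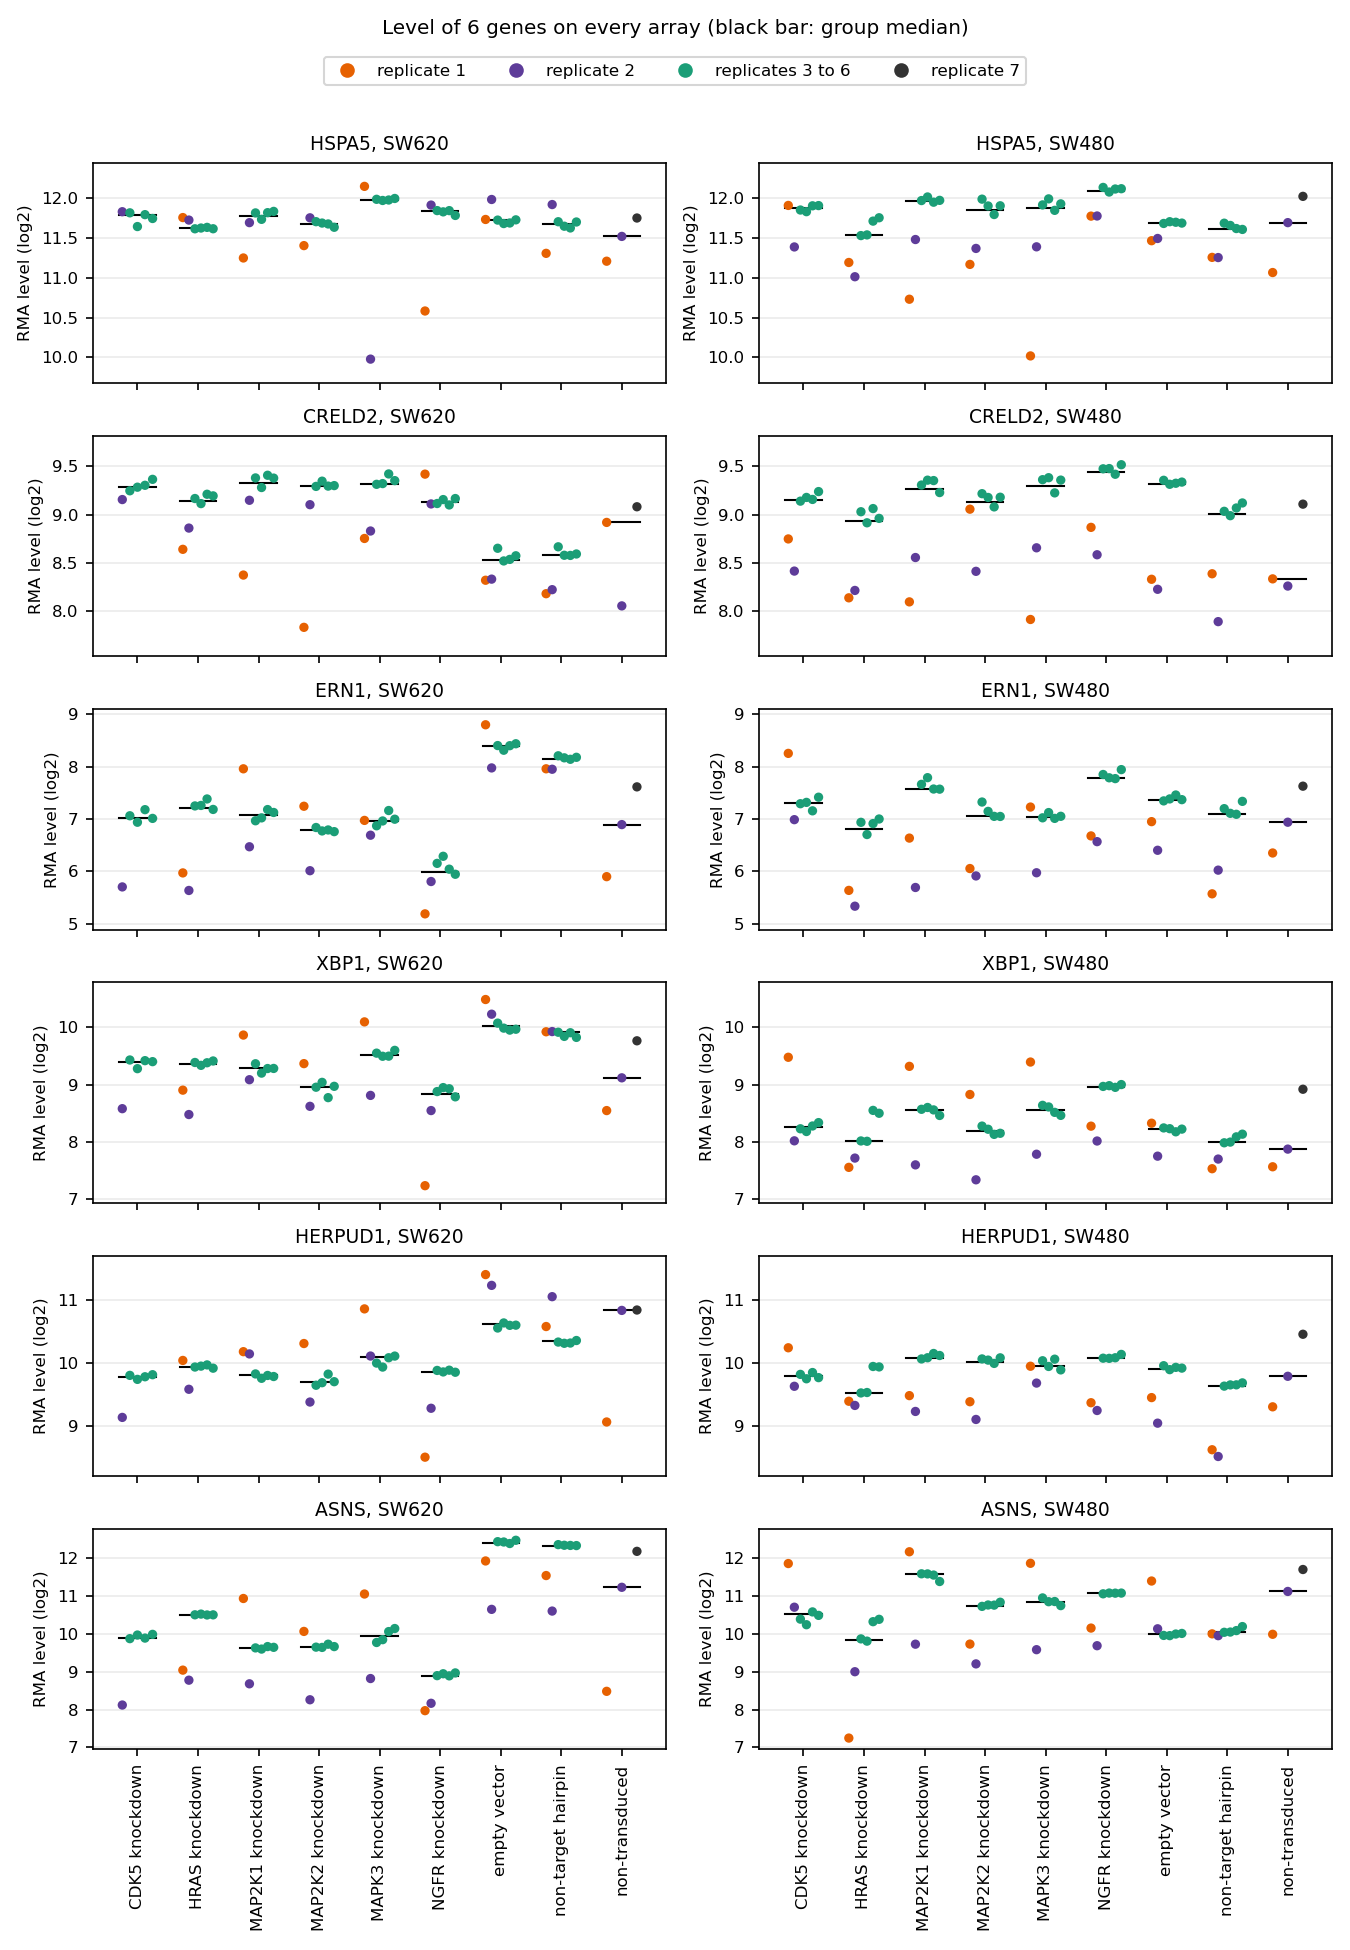
Level (log2) of HSPA5, CRELD2, ERN1, XBP1, HERPUD1 and ASNS on every array, SW620 left and SW480 right, knockdowns followed by vector controls and non-transduced cells; colour gives the replicate and black bars are group medians. In SW620 ERN1 and ASNS lie below the vector control arrays of the same round in every knockdown, CRELD2 lies mostly above them, and non-transduced arrays spread widely.

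HSPA5, the central chaperone of the ER and a marker of the response, was not called in SW620. It had 10.58 to 11.91 (median 11.84) with NGFR knockdown, against 11.31 to 11.98 (median 11.70) in vector controls, and the ranges overlap. The array at 10.58 is replicate 1, which had a sign of degraded RNA, and the others lay between 11.78 and 11.91. Over the 6 knockdowns its SW620 changes ran from -0.07 to 0.02, with the 3 arrays of degraded RNA included. The 95% intervals reached from -0.37 to 0.33, so modest changes either way remain possible. Over both lines, 9 of 12 MAPK3 knockdown arrays were above every HSPA5 control of their own round and 2 below. With HRAS knockdown 3 of 12 were above and 8 below. In SW480 HSPA5 rose with NGFR knockdown, to between 11.77 and 12.14 (median 12.10), against 11.25 to 11.70 (median 11.64) in vector controls. All 6 arrays were above every control (0.43 ± 0.15, adjusted p = 0.0269), and the change was 0.41, 0.40 and 0.44 within replicate 1, replicate 2 and replicates 3 to 6. The call was lost without a term for rounds (adjusted p = 0.229), with the empty vector as the only control (0.142) and without any 1 of replicates 3 to 6 (0.0863 to 0.105).

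Genes listed with HSPA5 as chaperones and their partners split in SW620. DNAJB9 (ERdj4), which represses ERN1 through HSPA5, had 7.43 to 7.74 (median 7.63) with MAP2K1 knockdown, against 8.56 to 10.21 (median 8.69) in vector controls, without overlap. Its SW620 changes were -1.05, -1.10, -1.39, -1.03, -0.70 and -0.92 for CDK5, HRAS, MAP2K1, MAP2K2, MAPK3 and NGFR, and with replicates 3 to 6 alone the NGFR change was 0.01. Without the arrays of degraded RNA the NGFR change was -0.48 (adjusted p = 0.114). CRELD2 had 9.15, 9.25, 9.28, 9.30 and 9.36 with CDK5 knockdown, against 8.18 to 8.67 (median 8.55) in vector controls, all above every control. Its SW620 changes were 0.72, 0.55, 0.68, 0.55, 0.69 and 0.70 in the same order (SE 0.11 to 0.12, adjusted p between 5.54e-07 and 7.86e-05), with 1 MAP2K2 array below all controls. DNAJB11 (ERdj3) rose in 5 of the 6, most with MAPK3 knockdown, with 10.43 to 10.99 (median 10.90) against 9.78 to 10.39 (median 10.06) in vector controls (0.74 ± 0.13, adjusted p = 6.83e-06).

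SDF2L1, which forms a complex with DNAJB11, rose with CDK5 knockdown in SW620, with 8.68, 9.67, 9.67, 9.69 and 9.69 against 7.94 to 8.86 (median 8.77) in vector controls (0.80 ± 0.18, adjusted p = 0.000325). The array at 8.68 lies within the control range over all rounds and 0.73 above the controls of its own round, replicate 2. MANF, a secreted stress protein, rose in SW620 with CDK5 knockdown by 0.34. HYOU1 (GRP170), the exchange factor of HSPA5, was called in none of the 12 comparisons within a line, with changes from -0.44 to 0.27. Over both lines, 11 of 11 CDK5 knockdown arrays were above every HYOU1 control of their own round. With MAPK3 knockdown 9 of 12 were above and 2 below, with HRAS 7 and 2, and with NGFR 4 and 4. HSP90B1, measured here by a probe set open to cross-hybridisation, was not called in SW620 and rose in SW480 with HRAS (0.59) and NGFR knockdown (0.74). The HRAS change turned to -0.42 in replicates 1 and 2 alone, and it was not called without a term for rounds (adjusted p = 0.391). Without replicate 3, 4 or 6 it was 0.56, 0.35 and 0.41 and not called (limma adjusted p = 0.0982, 0.309 and 0.198). DNAJC3 (p58IPK), an inhibitor of EIF2AK3, fell in SW620 with HRAS, MAP2K1 and NGFR knockdown, by 0.48, 0.43 and 0.39.

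Among lectin chaperones and disulfide isomerases, CALR (calreticulin) rose in SW620 in 4 knockdowns. It had 10.19 to 11.29 (median 10.37) with NGFR knockdown, against 9.37 to 10.93 (median 9.55) in vector controls, ranges that overlap (0.75 ± 0.16, adjusted p = 0.000177). CANX (calnexin), its membrane-bound relative, fell in SW620 with MAP2K2 (-0.23) and NGFR knockdown (-0.34), and PDIA3 and P4HB, both disulfide isomerases, were called in no comparison within a line. With MAPK3 knockdown over both lines, 10 of 12 arrays were above every control of their own round and 2 below, for each gene. Their mean changes there were -0.08 and -0.14. With NGFR knockdown 9 were above and 2 below for PDIA3, and 3 above and 5 below for P4HB. PDIA4 rose with NGFR knockdown in SW480 by 0.47.

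PDIA6 moved with MAPK3 knockdown in both lines. In SW620 it had 8.19 to 9.23 (median 8.68), against 9.70 to 10.11 (median 9.76) in vector controls, and in SW480 9.63 to 10.78 (median 9.84), against 10.93 to 11.35 (median 10.98), without overlap in either line. The changes were -1.15 ± 0.11 in SW620 (adjusted p = 2.2e-13) and -1.03 ± 0.11 in SW480 (adjusted p = 3.74e-11), and the difference between lines was -0.11 (adjusted p = 0.691). All 4 PDIA6 probe sets were lower, with changes of -0.77 to -1.31 averaged over lines. Smaller falls were called with CDK5 (-0.37 averaged over lines) and HRAS knockdown (-0.48).

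**Figure D4:**
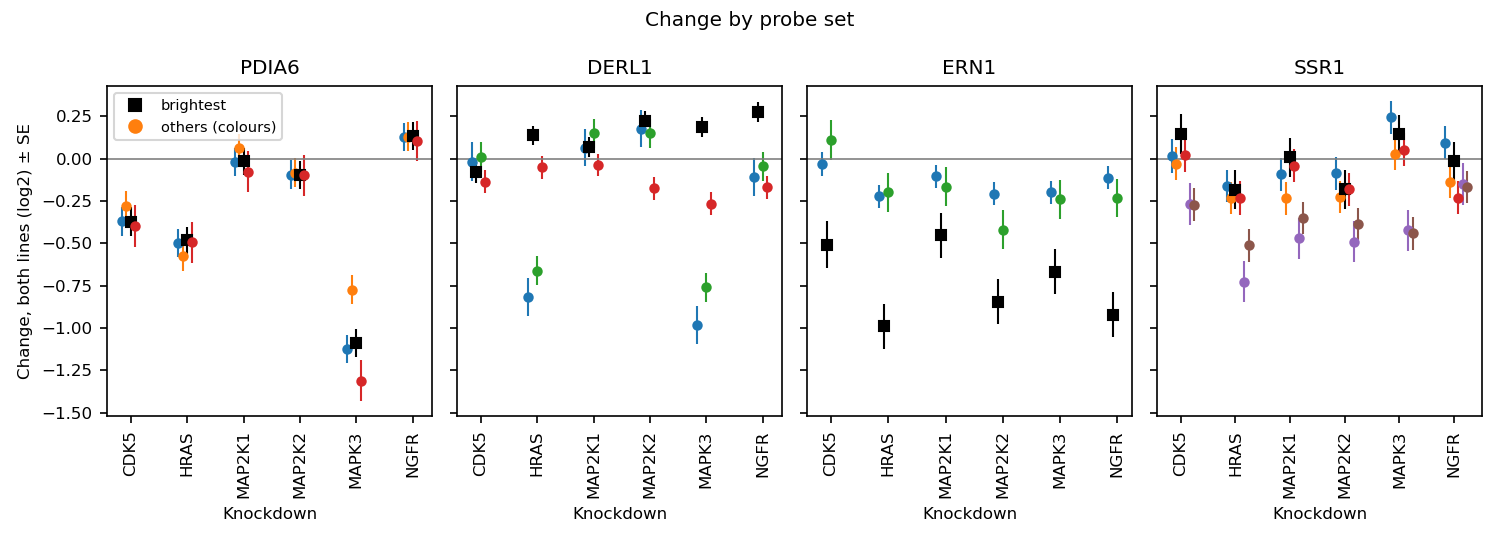
Change averaged over both lines (log2, ± SE) for each probe set of PDIA6, DERL1, ERN1 and SSR1 in the 6 knockdowns; black squares are the brightest probe set. The PDIA6 probe sets move together, while those of DERL1 part with HRAS and MAPK3 knockdown.

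Among genes of ER-associated degradation, HERPUD1 had 8.51 to 9.88 (median 9.85) with NGFR knockdown in SW620, against 10.31 to 11.40 (median 10.58) in vector controls, without overlap, and its SW620 changes were -0.996, -0.76, -0.75, -0.90, -0.48 and -1.12 for CDK5, HRAS, MAP2K1, MAP2K2, MAPK3 and NGFR (adjusted p between 3.89e-08 and 0.0138). SEL1L, the scaffold of the retrotranslocation complex, was lower in SW620 in 5 knockdowns and stood at -0.10 with MAPK3 (adjusted p = 0.62). In SW480 its changes ran from -0.41 to 0.13, with 1 knockdown called lower. With NGFR knockdown in SW620 it had 6.28 to 8.49 (median 8.43), against 8.24 to 9.21 (median 9.03) in vector controls, ranges that overlap (-0.98 ± 0.13, adjusted p = 7.85e-09), though each array was below the controls of its own round. EDEM1, a mannosidase-like protein that hands over misfolded glycoproteins, had 6.99 to 7.37 (median 7.28) with NGFR knockdown, against 7.49 to 8.33 (median 8.26) in vector controls, without overlap (-0.83 ± 0.10, adjusted p = 9.35e-10).

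DERL1, DERL2 and DERL3 encode derlins of the retrotranslocation channel. DERL1 rose in SW620 with MAP2K2, MAPK3 and NGFR knockdown by 0.31, 0.35 and 0.21 on its brightest probe set. Its other probe sets disagreed: averaged over lines with MAPK3 knockdown the brightest gave 0.18, and the other 3 gave -0.98, -0.76 and -0.27, so no direction is given for DERL1 there. DERL2 rose in SW620 with HRAS (0.30), MAP2K1 (0.31) and MAPK3 knockdown (0.31). DERL3 was called once, in SW480 with MAPK3 knockdown (0.29).

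The 4 translocation and signal peptide genes had 5 of 24 pairs called in SW620, 20.8% beside 19.1% to 31% of all genes. SEC61B, a channel subunit, rose in SW620 with MAP2K1 (0.28) and MAPK3 knockdown (0.21). SSR1, of the translocon-associated complex, fell in SW620 with HRAS (-0.42) and MAP2K2 knockdown (-0.43). SPCS3, of the signal peptidase, fell in SW620 and rose in SW480 with NGFR knockdown (-0.34 and 0.27). SEC11C, its catalytic subunit, was called in no comparison within a line.

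NGFR knockdown in SW480 had 12 members higher and 0 lower. The count was 2 without a term for rounds, 1 with arrays averaged in pairs, 5 or 6 without any 1 of replicates 3 to 6, 0 in replicates 1 and 2 alone and 25 in replicates 3 to 6 alone. DNAJB9 rose most, with 8.90 to 9.77 (median 9.60) against 7.85 to 8.61 (median 8.53) in vector controls, without overlap (1.04 ± 0.24, adjusted p = 0.000591). XBP1 had 8.01 to 9.001 (median 8.96) against 7.53 to 8.33 (median 8.11), ranges that overlap, with 5 of 6 arrays above the controls of their own round (0.67 ± 0.17, adjusted p = 0.00183). EIF2AK3 had 7.16 to 9.14 (median 9.07) against 6.70 to 8.72 (median 8.62), ranges that overlap, and changed by 0.42. The others were HSP90B1 (0.74), ERN1 (0.50), DNAJB11 (0.49), PDIA4 (0.47), HSPA5 (0.43), CRELD2 (0.36), DERL1 (0.33), SPCS3 (0.27) and SEC61B (0.21).

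The lines were also compared directly, as the SW620 change minus the SW480 change. Of 180 member pairs 51 were called, 9 higher and 42 lower. By knockdown they were 1 and 7 with CDK5 knockdown (all genes 6.5% and 9.06%, 15.6% in all), 1 and 6 with HRAS knockdown (all genes 10.2% and 8.69%, 18.9% in all) and 2 and 4 with MAP2K1 knockdown (all genes 5.64% and 5.9%, 11.5% in all). They were 0 and 7 with MAP2K2 knockdown (all genes 4.53% and 5.91%, 10.4% in all), 4 and 4 with MAPK3 knockdown (all genes 8.17% and 8.83%, 17% in all) and 1 and 14 with NGFR knockdown (all genes 10.5% and 13.3%, 23.7% in all). ERN1 differed in all 6, from -0.95 with HRAS to -2.84 with NGFR knockdown. XBP1 differed by -2.12 with NGFR knockdown, where SW620 fell and SW480 rose. DNAJB9 differed by -1.97 there, and by -1.09 in replicates 3 to 6 alone, where its SW620 change was 0.01. CRELD2 differed the other way, by 0.70 with HRAS knockdown. The 51 pairs became 13 without a term for rounds, 137 in replicates 3 to 6 alone and 1 against non-transduced cells. They were 67 without the arrays of degraded RNA and 59 without the SW480 arrays with SW620 genes.

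The ATF4 arm was mostly lower in SW620. Of 132 gene and knockdown pairs 110 were called (83.3%, beside 19.1% to 31% of all genes by knockdown), 1 higher and 109 lower, with medians of -0.94, -0.87, -0.85, -1.18, -0.69 and -1.30 for CDK5, HRAS, MAP2K1, MAP2K2, MAPK3 and NGFR, beside 0.02, -0.05, -0.02, -0.10, 0.00 and -0.19 for the members. Whether the 2 lists differ was not tested. ASNS, asparagine synthetase, had 7.97 to 8.97 (median 8.89) with NGFR knockdown, against 10.60 to 12.47 (median 12.34) in vector controls, without overlap (-3.34 ± 0.31, adjusted p = 4.43e-14). TRIB3, a pseudokinase that feeds back on ATF4, had 8.59 to 9.67 (median 8.63) against 11.43 to 11.998 (median 11.68), a change of -2.71. DDIT4, an inhibitor of mTORC1, changed by -3.64.

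ATF4 itself was lower in SW620 in 5 knockdowns (-0.53 to -0.76) and stood at -0.08 with HRAS knockdown (adjusted p = 0.638). DDIT3 had 7.87 to 8.18 (median 8.00) with MAP2K1 knockdown, a change of -0.92 ± 0.11, and was lower in 5 knockdowns. ATF5 was the 1 gene called higher, with HRAS knockdown (0.65). In SW480, 24 of 132 ATF4 arm pairs were called, 16 higher and 8 lower, a share of 18.2% beside 5.17% to 26.2% of all genes by knockdown. The count was 2 (0 higher, 2 lower) without a term for rounds, 85 (38 higher, 47 lower) in replicates 3 to 6 alone and 8 to 45 when 1 replicate number was left out. The called pairs included ASNS with MAP2K1 knockdown (1.19 ± 0.31, adjusted p = 0.00814) and SLC7A11, a cystine carrier, with MAPK3 knockdown (1.23).

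**Figure D5:**
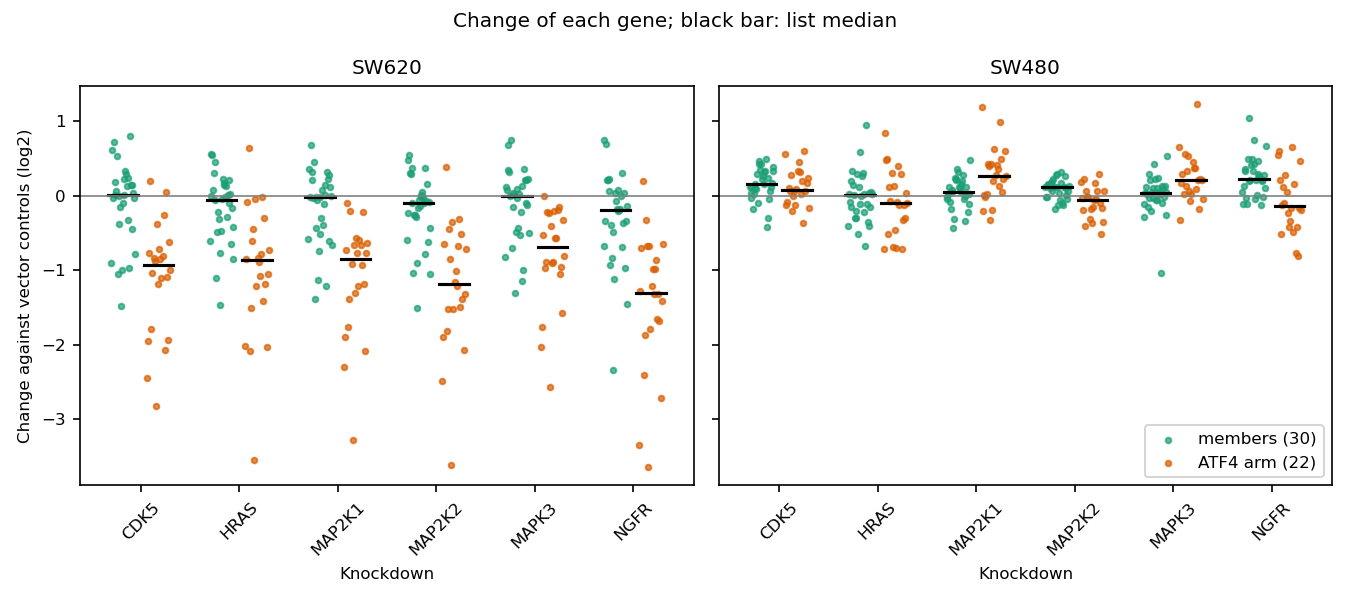
Change against vector controls (log2) of each of 30 members (green, left of each pair) and 22 ATF4 arm genes (orange) in SW620 and SW480; black bars are list medians. In SW620 the members' medians lie near 0 and the ATF4 arm medians between -0.69 and -1.30.

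Other genes of the pathway, in lists that hold no member, were called in both directions, at shares near those of all genes. Over the 6 knockdowns in SW620, the 19 other folding and redox genes gave 6 higher and 27 lower of 114 pairs, with medians from -0.19 to -0.06 by knockdown. The 13 other signalling genes gave 4 higher and 20 lower of 78 pairs there. The 17 other degradation genes gave 13 higher and 14 lower of 102 pairs, and the 21 other translocation, cleavage and glycosylation genes 9 higher and 20 lower of 126 pairs. These shares, from 23% to 30.8%, lie within the 19.1% to 31% of all genes called in SW620. By direction, 9.77% to 14.2% of all genes were higher there and 9.28% to 16.8% lower. The folding and redox list and the signalling list leaned to falls. Whether any list differs from all genes was not tested. In SW480 the same lists gave 4 higher and 8 lower (folding and redox), 5 and 7 (signalling), 10 and 4 (degradation) and 8 and 11 (translocation), shares of 10.5% to 15.4% beside 5.17% to 26.2% of all genes. Of the 14 degradation pairs called in SW480, 8 came with NGFR knockdown, 7 higher and 1 lower.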

How the data were processed

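Per the labels, biotinylated RNA was hybridised to Affymetrix arrays, and the deposited values are log2 levels that the submitters' processing notes attribute to RMA; no version and no joint normalization is given in the sources used here. No counts exist, so precision rests on the number of arrays. Of 54675 probe sets, 41097 name 1 gene, and the brightest per gene gave 19775 genes, without a filter.

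All 101 arrays were fitted with limma 3.58.1 in R 4.3.3 (eBayes with trend and robust) on group and round of sample names within line (replicate 1, replicate 2, replicates 3 to 6, replicate 7). Tests were two-sided, with Benjamini-Hochberg adjustment over all genes and a threshold of 0.05; the code was tested on simulated data. Same-numbered arrays deviated from their group means with a median correlation of -0.016 in SW480 and 0.0011 in SW620, so numbers were not taken to pair arrays. Members and lists were chosen with earlier results of these data known. Named genes are 10 fixed members (the sensors and leading chaperones), ATF4, DDIT3, ASNS and TRIB3, and the 3 largest changes each way per comparison; others were named after their values were seen. The non-transduced arrays that titles call replicate 7 are called 4 in another field, and 1 NGFR source name is misspelt; titles were followed. The series text names 8 targets, and 6 are analysed here. Alternatives covered the control, rounds, probe sets, normalization and arrays.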

Additional observations from a re-analysis of the deposited data

Results flagged for a closer look

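Of 28 gene and group pairs examined, 8 had 1 array far from the others of its group by Dixon's test. Each group mixes rounds, so a difference between rounds alone can set an array of replicate 1 or 2 apart. All 8 cases were of replicate 1 or 2, so the usual rate of about 1 in 20 groups does not apply. The array of NGFR knockdown SW620, replicate 1 had XBP1 at 7.23 against 8.55 to 8.95 on the others, SEL1L at 6.28 against 7.85 to 8.49 on the others, HSPA5 at 10.58 against 11.78 to 11.91 on the others and CRELD2 at 9.42 against 9.10 to 9.17 on the others. The array of CDK5 knockdown SW620, replicate 2 had ATF6 at 6.98 against 7.48 to 7.54 on the others and SDF2L1 at 8.68 against 9.67 to 9.69 on the others. The array of MAP2K1 knockdown SW620, replicate 1 had PPP1R15A at 7.84 against 6.55 to 6.90 on the others. The array of HRAS knockdown SW480, replicate 1 had PPP1R15A at 11.39 against 8.50 to 9.38 on the others. The NGFR knockdown array is also 1 of the 3 with a sign of degraded RNA. Without those 3 arrays the XBP1 change with NGFR knockdown in SW620 was -1.15 (limma adjusted p = 2.92e-08), beside -1.45 with them, and of 185 named changes in all 178 kept their direction and side of the threshold and 7 were no longer called.

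Changes that differed between the lines by limma's test of the difference (SW620 change minus SW480 change) were as follows. With CDK5 knockdown these were CRELD2 (0.61), ERN1 (-1.95), HERPUD1 (-1.34), XBP1 (-1.17), with adjusted p up to 0.00528. With HRAS knockdown these were CRELD2 (0.70), HSP90B1 (-1.06), ERN1 (-0.95), PPP1R15A (-0.94), with adjusted p up to 0.00833. With MAP2K1 knockdown these were CRELD2 (0.56), DERL2 (0.49), ERN1 (-1.34), XBP1 (-1.14), HERPUD1 (-1.10), with adjusted p up to 0.0373. With MAP2K2 knockdown these were ERN1 (-1.33), HERPUD1 (-1.19), XBP1 (-1.17), with adjusted p up to 0.000446. With MAPK3 knockdown these were DNAJB11 (0.77), CRELD2 (0.57), DERL2 (0.47), ERN1 (-1.27), XBP1 (-1.03), HERPUD1 (-0.91), with adjusted p up to 0.0387. With NGFR knockdown these were CALR (0.86), ERN1 (-2.84), XBP1 (-2.12), DNAJB9 (-1.97), with adjusted p up to 0.00265.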

How the results depend on the processing

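Counts of called genes depended on the control, on the term for rounds and on which replicates entered. The share of all genes called is not given for these settings, except against non-transduced cells. The counts given next are those that moved by over 1.5 times. The replicate block in place of rounds moved no count that much and left 74 member pairs in SW620, 21 in SW480 and 45 in the line difference, beside 79, 24 and 51. Without a term for rounds, the counts were members averaged over lines (CDK5 1, HRAS 5, MAP2K1 1, MAP2K2 1, MAPK3 3, NGFR 4) and ATF4 arm genes averaged over lines (MAP2K1 7, MAP2K2 12, MAPK3 6) and member pairs (SW620 32, SW480 4, line difference 13) and ATF4 arm pairs (SW480 2) and members in control comparisons (vector controls minus non-transduced SW620 1, vector controls SW620 minus SW480 13) and ATF4 arm genes in control comparisons (vector controls minus non-transduced SW620 0). With the non-target hairpin as the only control, the counts were members averaged over lines (CDK5 7, HRAS 9, MAP2K1 3, MAP2K2 4, NGFR 6) and member pairs (line difference 32) and members in control comparisons (vector controls minus non-transduced SW620 2). With arrays averaged in pairs, the counts were members averaged over lines (CDK5 1, HRAS 9, MAP2K1 2, MAP2K2 1, MAPK3 5, NGFR 7) and ATF4 arm genes averaged over lines (CDK5 4, MAP2K1 4, MAP2K2 12, MAPK3 3) and member pairs (SW620 45, SW480 4, line difference 13) and ATF4 arm pairs (SW480 6) and members in control comparisons (vector controls minus non-transduced SW620 1) and ATF4 arm genes in control comparisons (vector controls minus non-transduced SW620 5). In replicates 3 to 6 alone, the counts were members averaged over lines (CDK5 26, MAP2K1 23, MAP2K2 21, MAPK3 25, NGFR 25) and ATF4 arm genes averaged over lines (MAP2K1 17, MAPK3 18) and member pairs (SW620 144, SW480 114, line difference 137) and ATF4 arm pairs (SW480 85) and members in control comparisons (non-target minus empty vector 7). In replicates 1 and 2 alone, the counts were members averaged over lines (CDK5 0, HRAS 2, MAP2K1 0, MAP2K2 0, MAPK3 0, NGFR 1) and ATF4 arm genes averaged over lines (CDK5 0, HRAS 5, MAP2K1 0, MAP2K2 0, MAPK3 0, NGFR 4) and member pairs (SW620 6, SW480 0, line difference 0) and ATF4 arm pairs (SW620 10, SW480 0) and members in control comparisons (vector controls minus non-transduced SW620 0, vector controls SW620 minus SW480 11) and ATF4 arm genes in control comparisons (vector controls minus non-transduced SW620 0). Against non-transduced cells, the counts were members averaged over lines (CDK5 0, HRAS 5, MAP2K1 0, MAP2K2 1, MAPK3 3, NGFR 3) and ATF4 arm genes averaged over lines (CDK5 2, HRAS 7, MAP2K1 1, MAP2K2 0, MAPK3 3, NGFR 8) and member pairs (SW620 3, SW480 8, line difference 1) and ATF4 arm pairs (SW620 8, SW480 8). Without all 6 arrays that stood apart, the counts were members averaged over lines (MAP2K1 16, MAP2K2 15, MAPK3 20) and member pairs (SW480 54, line difference 82) and members in control comparisons (non-target minus empty vector 1, vector controls minus non-transduced SW620 11). Without arrays of degraded RNA, the counts were members averaged over lines (MAP2K2 16, MAPK3 14) and member pairs (SW480 38) and ATF4 arm pairs (SW480 37). With the empty vector as the only control, the counts were member pairs (SW480 13) and ATF4 arm pairs (SW480 9). Leaving out 1 replicate number at a time gave, as lowest and highest, members averaged over lines (CDK5 7 to 17, HRAS 9 to 15, MAP2K1 5 to 14, MAP2K2 4 to 14) and member pairs (SW480 9 to 50, line difference 33 to 77) and ATF4 arm pairs (SW480 8 to 45) and members in control comparisons (vector controls minus non-transduced SW620 3 to 10) and ATF4 arm genes in control comparisons (vector controls minus non-transduced SW620 2 to 18). Against non-transduced cells 55 named changes turned sign, none of them called: CDK5 over both lines (ERN1 0.11, DNAJB9 0.32, ATF3 0.11, DDIT3 0.032), HRAS over both lines (DNAJB9 0.11, XBP1 0.19), HRAS line difference (ERN1 0.95, PPP1R15A 0.033), MAP2K1 over both lines (ERN1 0.17, ATF3 0.091), MAP2K1 line difference (ERN1 0.56, HERPUD1 0.091), MAP2K2 over both lines (DNAJB9 0.32, XBP1 0.14, DDIT3 0.035, PPP1R15A 0.078), MAP2K2 line difference (ERN1 0.57, HERPUD1 0.0094), MAPK3 line difference (ERN1 0.64, HERPUD1 0.29), MAPK3 over both lines (ATF3 0.11, DDIT4 0.13, TRIB3 0.14), HRAS SW620 (ATF6 0.24, DDIT3 0.43, DNAJB9 0.41, ERN1 0.11, HERPUD1 0.0079, XBP1 0.19), MAP2K1 SW620 (ATF6 0.28, DNAJB9 0.12, ERN1 0.45, HERPUD1 0.024, XBP1 0.38), MAP2K2 SW620 (ATF6 0.26, DDIT3 0.027, DNAJB9 0.48, ERN1 0.062, PPP1R15A 0.23), MAPK3 SW620 (ATF6 0.040, DNAJB9 0.80, ERN1 0.27, HERPUD1 0.29, PPP1R15A 0.024, XBP1 0.54), NGFR SW620 (ATF6 0.19, DDIT3 0.20, DNAJB9 0.58, EIF2AK3 0.087, PPP1R15A 0.33), CDK5 SW620 (DNAJB9 0.45, ERN1 0.088, PPP1R15A 0.047, XBP1 0.26), NGFR over both lines (XBP1 0.21). Elsewhere the sign turned for DERL1 in MAPK3 over both lines (-0.46, mean of all probe sets), DNAJB11 in vector controls SW620 minus SW480 (0.021, replicates 1 and 2 only), CRELD2 in vector controls SW620 minus SW480 (0.055, replicates 1 and 2 only), ATF6 in HRAS SW480 (0.018, mean of all probe sets), ATF6 in MAP2K1 SW620 (0.16, replicates 1 and 2 only), DNAJB9 in NGFR SW620 (0.011, replicates 3 to 6 only), HSP90B1 in HRAS SW480 (-0.42, replicates 1 and 2 only). The cause was not tested. Using replicates 1 and 2 alone, leaving out all arrays that stood apart or the SW480 arrays with SW620 genes, and taking non-transduced cells as the control were chosen after seeing the data.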
